A study of Mus musculus with 28 samples.

Results

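Inhibitory checkpoint receptors are surface proteins of T cells that dampen signals from the antigen receptor. This account follows the transcripts of 7 of them in TRP1-specific CD4+ T cells. The genes were taken by name: Pdcd1 (the receptor PD-1), Ctla4, Tigit, Lag3, Havcr2 (Tim-3), Cd160 and Btla. They were chosen with earlier results of these data known, so the shares of all genes given beside receptor counts describe and do not test the set. All 7 were measured, among 19938 genes with a probe set of a single symbol, on all 28 arrays. Each gene had 1 such probe set on the array, so the rule of taking the probe set with the highest mean left no choice. Their probe set numbers were 10356866 for Pdcd1, 10346790 for Ctla4, 10439527 for Tigit, 10547906 for Lag3, 10375443 for Havcr2, 10500406 for Cd160 and 10435982 for Btla.

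The cells came from BwTRP1 Rag1-/- mice, whose CD4+ T cells carry 1 transgenic receptor for TRP1, a melanocyte protein, and which cannot rearrange receptors of their own. They were stimulated for 7 days with TRP1 peptide on irradiated C57/B6 spleen cells. Th17 cultures received IL-1, IL-6, IL-21 and TGFβ2 with antibodies to IL-2, IL-4 and IFN-γ, and later IL-23, whereas Th1 cultures received IL-12 and an antibody to IL-4. Both were given medium with IL-2 later in culture. The polarized Thy1.2+ cells were transferred into B6.PL mice that had received 5 Gy, a dose that leaves the host some Thy1.1+ cells of its own. On day 5 and day 15 they were recovered from pooled spleens and inguinal lymph nodes by CD4 enrichment and sorting for Thy1.2, and each sample was split into a part given antibodies to CD3 and CD28 for 2 h (restimulated) and an unstimulated part. The labels give no age of the mice. Day 0 held 1 array for each type and condition. Th17 cells had 3 restimulated and 3 unstimulated arrays on day 5 and 4 of each on day 15. Th1 cells had 3 of each on day 5 and 2 of each on day 15. Nothing in the labels says that the replicates of a group came from separate mice, so the p-values measure the spread between these samples only.

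PD-1 and CTLA-4 belong to the CD28 family. PD-1 binds PD-L1 and PD-L2 and recruits phosphatases to the antigen receptor, while CTLA-4 competes with CD28 for CD80 and CD86. TIGIT binds the poliovirus receptor and competes with the activating receptor CD226. CD160 and BTLA share the ligand HVEM, LAG-3 binds MHC class II, and Tim-3 binds galectin-9 and CEACAM1 among other ligands. Several of these receptors, though not all, are known to appear after activation of T cells and to stay high under lasting exposure to antigen. Tim-3 was first described on Th1 cells.

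All values are log2 RMA values, on which a difference of 1 is a 2-fold change. No level of 1 gene is set against that of another, because probe sets bind with different strength. A linear model over the 24 arrays taken after transfer (limma, 8 groups) gave each difference with its standard error (SE). It treated the parts of a split sample as separate arrays, and a block on the replicate number, taken to tie them, was run as an alternative. A gene counts as called where its p, adjusted for all 19938 genes after Benjamini and Hochberg, was under 0.05. Array medians lay between 6.77 and 7.09, same-group arrays correlated at 0.987 to 0.998, and precision is limited by how many arrays a group has. The mean of 9 T cell identity genes lay between 11.82 and 12.32 on every array, and 0 of the 9 were called in any of the 12 pairwise comparisons by limma. Myeloid markers (14 genes) stood high on some Th17 arrays: their mean was 8.82 and 9.20 on the day 0 Th17 arrays, against 6.66 and 6.83 on the day 0 Th1 arrays. It reached 8.37 and 7.95 on the unstimulated and restimulated parts of day 5 Th17 sample 1. Where leaving that sample out moved a value given below by over 1.5 times or changed its call, both values are given.

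RefSeq promoter windows were available for 6 of the 7 receptors. The windows of Pdcd1 and Ctla4, the receptors whose transcripts rose with restimulation in every comparison after transfer, are printed with those of Havcr2 and Tigit, which were called in none of them. Each holds the 250 bases before the annotated start, 5′ to 3′ on the strand of the gene (GRCm38.p6). Capitals mark matches, on either strand, to GGAAA (the core of NFAT sites, read as TTTCC on the other strand), TGANTCA (AP-1) or AAAGGTCA (the monomer site of Nr4a factors). NFAT, AP-1 and Nr4a factors are switched on by antigen receptor signals.
Pdcd1, chr1:94052554-94052803, minus strand: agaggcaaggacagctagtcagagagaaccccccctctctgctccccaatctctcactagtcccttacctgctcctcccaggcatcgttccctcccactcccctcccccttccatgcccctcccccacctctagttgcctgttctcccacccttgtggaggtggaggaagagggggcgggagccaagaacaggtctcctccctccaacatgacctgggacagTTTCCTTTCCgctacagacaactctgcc
Ctla4, chr1:60908775-60909024, plus strand: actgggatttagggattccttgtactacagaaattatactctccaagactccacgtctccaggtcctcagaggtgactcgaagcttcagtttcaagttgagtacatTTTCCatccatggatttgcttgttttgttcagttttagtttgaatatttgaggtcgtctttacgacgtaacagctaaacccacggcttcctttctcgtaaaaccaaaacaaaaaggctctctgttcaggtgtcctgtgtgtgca
Havcr2, chr11:46454681-46454930, plus strand: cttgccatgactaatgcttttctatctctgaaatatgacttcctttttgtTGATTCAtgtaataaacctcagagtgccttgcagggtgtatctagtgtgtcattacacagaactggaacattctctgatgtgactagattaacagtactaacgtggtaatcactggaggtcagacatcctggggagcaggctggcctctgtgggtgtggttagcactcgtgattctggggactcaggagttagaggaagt
Tigit, chr16:43664185-43664434, minus strand: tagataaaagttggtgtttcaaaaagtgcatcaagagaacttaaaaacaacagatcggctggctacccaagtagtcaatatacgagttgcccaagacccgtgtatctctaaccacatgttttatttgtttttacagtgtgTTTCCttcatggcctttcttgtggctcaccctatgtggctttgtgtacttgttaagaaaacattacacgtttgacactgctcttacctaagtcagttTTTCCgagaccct
The Pdcd1 window held 2 matches to the NFAT core, at -28 and -23 bases from the start, and the Tigit window held 2, at -110 and -13. The Ctla4 window held 1, at -144. The Havcr2 window held 0 of these and 1 AP-1 match at -200. No window of the 6 genes held the Nr4a letters. Of 32851 mouse windows of the same length, 55.6% held the NFAT core, 6.75% the AP-1 letters and 1.34% the Nr4a letters, so an NFAT core match is common. A match describes these letters and is not evidence of binding.

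**Figure D1:**
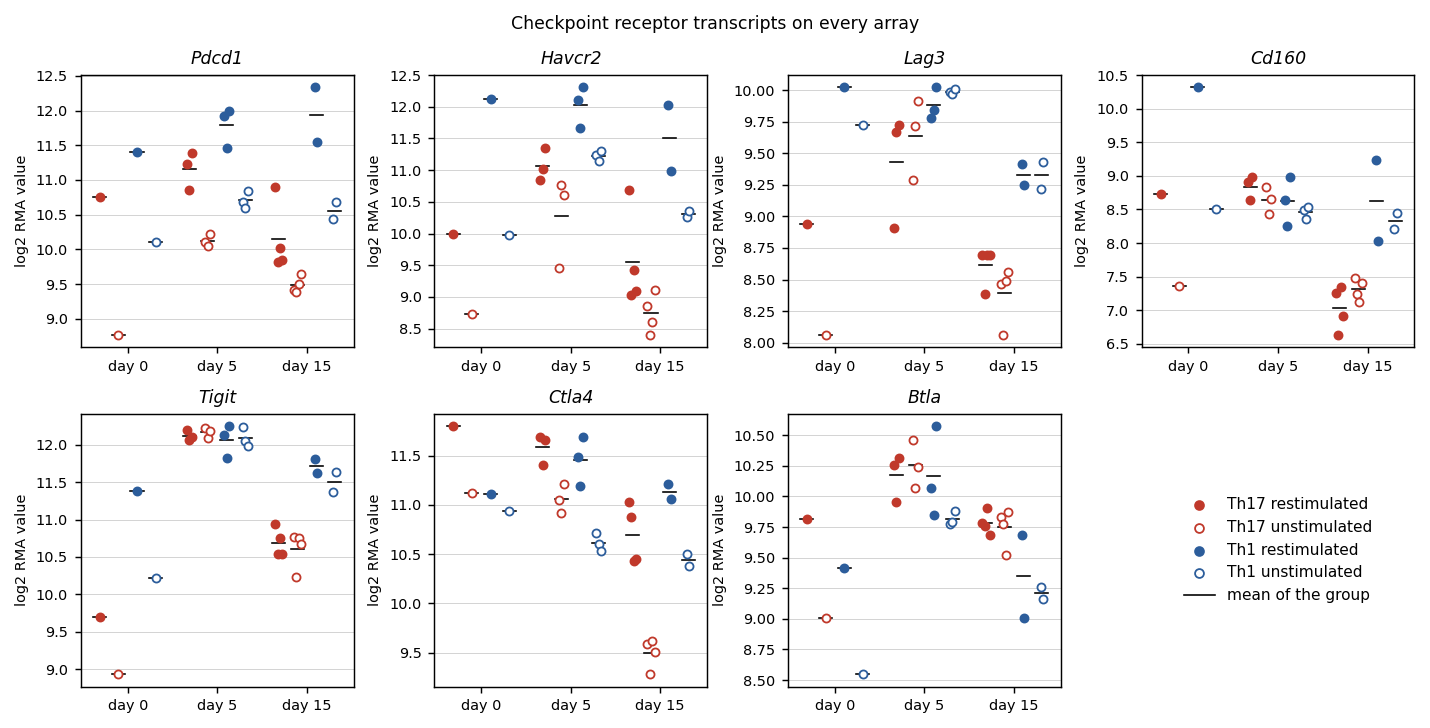
Log2 RMA value of each receptor gene on every array, by day, with Th17 (red) left of Th1 (blue) and restimulated arrays (filled) left of unstimulated ones (open); lines are group means. Tigit lay between 11.83 and 12.25 on all day 5 arrays. On day 15 the Th17 arrays lay below the Th1 arrays of the same condition for every receptor but Btla.

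Restimulation for 2 h raised the transcripts of 2 of the 7 receptors, Pdcd1 and Ctla4, in both types on both days. Genes called higher made up 3.99% of all genes in Th17 cells on day 5, 6.49% in Th17 cells on day 15, 4.07% in Th1 cells on day 5 and 2.65% in Th1 cells on day 15, and those called in either direction 8.07%, 17.5%, 13.0% and 7.29% in that order. Havcr2 averaged higher by 0.79 to 1.20 log2 units in the same 4 comparisons without passing the test, and 3 of these 4 values moved by over 1.5 times when 1 array was left out. Tigit, Lag3, Cd160 and Btla were not called in any. These comparisons ask which receptors respond within hours to a signal through CD3 and CD28.

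In Th17 cells on day 5, Pdcd1 had values of 11.22, 10.85 and 11.39 on restimulated arrays, against 10.11, 10.05 and 10.23 on unstimulated arrays. In Th1 cells on day 5 it had 11.92, 11.46 and 11.99 on restimulated arrays, against 10.68, 10.60 and 10.84 on unstimulated arrays. The groups did not overlap in either type, as for 27.7% of genes in Th17 cells and 38.6% in Th1 cells. The difference was 1.03 (SE 0.22, adjusted p = 0.00541) in Th17 cells and 1.08 (SE 0.22, adjusted p = 0.00212) in Th1 cells, so the transcript of PD-1 stood about 2.04- and 2.12-fold higher after restimulation. On day 15, Pdcd1 in Th17 cells had 10.90, 9.81, 10.03 and 9.85 on restimulated arrays, against 9.42, 9.39, 9.50 and 9.64 on unstimulated arrays. In Th1 cells on day 15 it had 12.34 and 11.54 on restimulated arrays, against 10.44 and 10.68 on unstimulated arrays. The day 15 groups did not overlap, as for 18.0% of genes in Th17 cells and 41.0% in Th1 cells. Th17 restimulated replicate 1, at 10.90, was the highest of its group. The day 15 difference was 0.66 (SE 0.19, adjusted p = 0.0186) in Th17 cells and 1.38 (SE 0.27, adjusted p = 0.00337) in Th1 cells.

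Ctla4 had 11.69, 11.41 and 11.65 on restimulated Th17 arrays of day 5, against 11.05, 10.91 and 11.21 on the unstimulated ones. In Th1 cells of day 5 its values were 11.49, 11.19 and 11.69 after restimulation, against 10.71, 10.60 and 10.53 without. Every restimulated array lay above every unstimulated array of its type. The differences were 0.53 (SE 0.15, adjusted p = 0.0265) in Th17 cells and 0.84 (SE 0.15, adjusted p = 0.000518) in Th1 cells. On day 15, Ctla4 had 11.03, 10.88, 10.43 and 10.45 on restimulated Th17 arrays, against 9.59, 9.28, 9.62 and 9.51 on unstimulated ones, 2.29-fold higher (SE 0.13 on the log2 scale, adjusted p = 6.20e-07). In Th1 cells of day 15 it had 11.21 and 11.06 after restimulation, against 10.50 and 10.38 without, a difference of 0.69 (SE 0.18, adjusted p = 0.0208). The Ctla4 groups did not overlap on day 15 either, and the shares of genes without overlap are those given for Pdcd1.

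For Havcr2, restimulated arrays of Th1 cells had 12.11, 11.67 and 12.31 on day 5, against 11.23, 11.14 and 11.30 on unstimulated arrays. On day 15 the Th1 values were 12.03 and 10.98 after restimulation, against 10.25 and 10.36 without. Neither pair of groups overlapped, as for 38.6% of genes on day 5 and 41.0% on day 15. The adjusted p was 0.144 on day 5 and 0.0926 on day 15. The 95% intervals of the difference ran from 0.08 to 1.52 and from 0.32 to 2.08. In Th17 cells the adjusted p was 0.180 on day 5 and 0.0640 on day 15, with intervals of 0.07 to 1.51 and 0.19 to 1.44. The Havcr2 difference was 0.38 without unstimulated replicate 1 in Th17 cells on day 5, and 0.50 without both parts of that sample. It was 0.44 without restimulated replicate 1 in Th17 cells on day 15, and 0.68 without restimulated replicate 1 in Th1 cells on day 15. In Th17 cells on day 15 it was called without restimulated replicate 2 (0.99, adjusted p = 0.0447) or 4 (0.97, adjusted p = 0.0361). It was also called among genes above the median (adjusted p = 0.04995) and with the replicate number as a block (adjusted p = 0.0449). The block takes arrays of the same number as parts of 1 split sample, which is uncertain in this comparison. The estimates for the remaining receptors were smaller. Tigit differences lay between -0.05 and 0.21, and those of Lag3 between -0.21 and 0.22. For Cd160 they ran from -0.28 to 0.30 and for Btla from -0.08 to 0.35. Larger differences are not excluded: the 95% interval ran from -0.27 to 0.87 for Cd160 in Th1 cells on day 15. For Btla in Th1 cells on day 5 it ran from 0.02 to 0.69.

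In each of the 4 comparisons 2 of the 7 receptors were called higher and 0 lower. Pdcd1 and Ctla4 were called higher in all 4, as were 1.14% of genes, and the other 5 receptors passed the test in none of the 4, as did 73.5% of genes. Whether restimulation acted differently in the types was tested as an interaction. On day 5 limma called 0 receptors and 0.0201% of genes, and 0 receptors had an unadjusted p under 0.05. On day 15 it called 0 receptors and 0 genes, with 2 receptors at an unadjusted p under 0.05: Pdcd1, at -0.72, and Ctla4, at 0.50, both with an adjusted p of 0.795. The Pdcd1 value was -0.32 without Th1 restimulated replicate 1 and -1.12 without replicate 2. The Ctla4 difference in Th17 cells was larger on day 15 than on day 5 by 0.67, with an adjusted p of 0.0934. In that test limma called 0 receptors and 1.17% of genes, and Ctla4 was the 1 receptor at an unadjusted p under 0.05. In Th1 cells the same test called 0 receptors and 0.0251% of genes, and 0 receptors had an unadjusted p under 0.05. The share of all genes at an unadjusted p under 0.05 was not counted for these tests.

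Both calls in Th1 cells on day 5 held when any array was left out. In Th17 cells on day 5 the Ctla4 call was lost without unstimulated replicate 1 or 2 or restimulated replicate 1 or 3 (adjusted p 0.0892 to 0.109), and without both parts of sample 1 Pdcd1 (0.0868) and Ctla4 (0.258) were both lost, at differences of 0.98 and 0.47, beside 1.03 and 0.53 with it. In Th17 cells on day 15 the Pdcd1 call was lost without unstimulated replicate 2 (0.0526) or restimulated replicate 1, where the difference was 0.41 (0.0839). In Th1 cells on day 15 both calls were lost without unstimulated replicate 1 or restimulated replicate 1 (adjusted p 0.0547 to 0.128), Ctla4 was lost without unstimulated replicate 2 (0.146), and without restimulated replicate 2 Havcr2 (0.0222) and Cd160 (0.0218) were called as well. A model of the compared groups alone lost both calls in Th1 cells on day 15 (0.121 and 0.167) and added Havcr2 in Th1 cells on day 5 (0.00247), and centring the arrays lost Ctla4 in Th17 cells on day 5 (0.0549). Of 8 regulatory T cell markers, 2 to 4 were called higher with restimulation in each comparison, and 3 of 3 erythroid markers lower in Th17 cells on day 15, and their part in the differences was not tested.

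**Figure D2:**
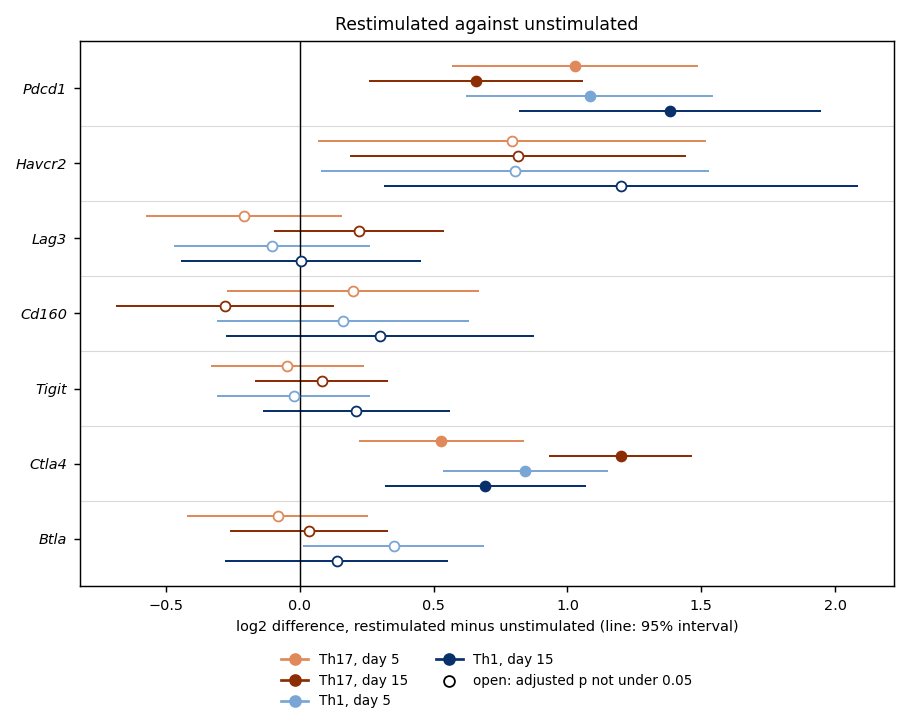
Log2 difference of each receptor gene, restimulated minus unstimulated, in Th17 and Th1 cells on day 5 and day 15; points are estimates, lines 95% intervals, and filled points are called. Pdcd1 and Ctla4 are filled in all 4 comparisons, and the intervals of Tigit and Lag3 cross 0 in all 4.

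On day 5 no receptor was called between Th17 and Th1 cells, with 0 of 7 among unstimulated arrays, where 3.63% of genes were called, and 0 of 7 among restimulated arrays, where 3.98% were. Pdcd1 and Havcr2 averaged lower in Th17 cells in both conditions without passing the test. Tigit was close to level between the types on that day. The comparison asks whether the culture conditions left a mark on the receptors after transfer.

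Pdcd1 averaged 10.13 ± 0.09 in unstimulated Th17 cells and 10.71 ± 0.12 in unstimulated Th1 cells (SD, n = 3 each), a difference of -0.58 (SE 0.22, adjusted p = 0.199). Among restimulated arrays it averaged 11.16 ± 0.27 in Th17 cells and 11.79 ± 0.29 in Th1 cells (SD, n = 3 each), a difference of -0.64 (SE 0.22, adjusted p = 0.141). Havcr2 had 9.46, 10.77 and 10.60 on unstimulated Th17 arrays, against 11.23, 11.14 and 11.30 on unstimulated Th1 arrays (difference -0.95, SE 0.35, adjusted p = 0.175). The groups did not overlap for Pdcd1 or Havcr2 in either condition. The lowest Havcr2 value, 9.46, came from Th17 sample 1, the sample with the highest myeloid marker mean, and without that sample the unstimulated Havcr2 difference was -0.54 (adjusted p = 0.692). Lag3 also had its lowest day 5 values on the parts of that sample, 8.91 restimulated and 9.29 unstimulated. Its restimulated difference was -0.45 with the sample and -0.19 without it (adjusted p = 0.226 and 0.788).

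Ctla4 and Btla leaned the other way among unstimulated arrays, by 0.44 each (adjusted p 0.116 and 0.172). After restimulation their differences were 0.13 and 0.01. Tigit had 12.20, 12.06 and 12.11 on restimulated Th17 arrays, against 12.13, 11.83 and 12.25 on restimulated Th1 arrays, and 12.22, 12.10 and 12.19 on unstimulated Th17 arrays, against 12.23, 12.05 and 11.99 on unstimulated Th1 arrays. These groups overlapped. The 95% intervals of the Tigit difference, -0.23 to 0.34 restimulated and -0.20 to 0.36 unstimulated, give its bounds. Cd160 differed by 0.22 restimulated and 0.18 unstimulated, with overlapping groups. Unstimulated groups did not overlap for 5 of the 7 receptors, as for 26.0% of all genes, and restimulated groups for 3 of 7, as for 18.1% of genes. At an unadjusted p under 0.05 there were 4 receptors among unstimulated arrays and 3 among restimulated ones. The share of all genes at that level was not counted, so these counts have no background beside them. A model of the compared groups alone called Pdcd1, Ctla4 and Btla among unstimulated arrays (adjusted p 0.00457, 0.0240 and 0.0333) and Havcr2 among restimulated ones (0.0113). Myeloid markers were called higher in Th17 cells for 4 of 14 unstimulated and 3 of 14 restimulated, and regulatory T cell markers for 3 of 8 and 2 of 8, and their part in the differences was not tested.

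By day 15, Th17 cells held less transcript than Th1 cells of 6 receptors without restimulation (Pdcd1, Ctla4, Tigit, Lag3, Havcr2 and Cd160) and of 5 with it (the same without Ctla4). Among all genes, 2.28% were called lower and 4.15% in either direction without restimulation, and 2.98% and 6.43% with it. Btla leaned the other way in both conditions and was not called. In sorted populations, fewer cells that express a gene and less RNA per cell cannot be told apart.

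Tigit, the receptor for the poliovirus receptor, had 10.77, 10.24, 10.75 and 10.68 on unstimulated Th17 arrays, against 11.37 and 11.63 on unstimulated Th1 arrays. The difference was -0.90 (SE 0.14, adjusted p = 0.000354). After restimulation it had 10.94, 10.53, 10.75 and 10.54 in Th17 cells, against 11.81 and 11.62 in Th1 cells, a difference of -1.02 (SE 0.14, adjusted p = 6.30e-05). Every Th17 array lay below every Th1 array. Both calls held when any array was left out.

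Havcr2 had 8.86, 8.40, 8.60 and 9.11 on unstimulated Th17 arrays, against 10.25 and 10.36 on unstimulated Th1 arrays, 2.96-fold lower (log2 difference -1.56, SE 0.37, adjusted p = 0.0135). After restimulation it had 10.68, 9.04, 9.42 and 9.09 in Th17 cells, against 12.03 and 10.98 in Th1 cells, 3.86-fold lower (log2 difference -1.95, SE 0.37, adjusted p = 0.00159). The groups did not overlap, although restimulated Th17 replicate 1 came close to the lower Th1 array. Without Th1 unstimulated replicate 1 or 2 the adjusted p was 0.0952 or 0.183. Without Th1 restimulated replicate 1 it was 0.0944, and a model of the compared restimulated groups alone gave 0.0592.

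For Pdcd1, Th17 cells had 9.42, 9.39, 9.50 and 9.64 without restimulation, against 10.44 and 10.68 in Th1 cells (difference -1.07, SE 0.23, adjusted p = 0.00720). With restimulation they had 10.90, 9.81, 10.03 and 9.85, against 12.34 and 11.54 in Th1 cells (difference -1.80, SE 0.23, adjusted p = 2.25e-05). The groups did not overlap in either condition, and the unstimulated call was lost without Th1 unstimulated replicate 2 (adjusted p = 0.180).

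Cd160, a receptor for HVEM also found on NK cells, had 7.48, 7.24, 7.13 and 7.40 on unstimulated Th17 arrays, against 8.22 and 8.45 on unstimulated Th1 arrays (difference -1.02, SE 0.24, adjusted p = 0.0131). Restimulated Th17 arrays had 7.25, 6.63, 7.35 and 6.91, against 9.24 and 8.02 on restimulated Th1 arrays (difference -1.60, SE 0.24, adjusted p = 0.000130). No Th17 array reached the Th1 values. These Th17 values lay around the mean of the median gene (7.18), a low signal, and whether they stand above background was not tested. The unstimulated call was lost without Th1 unstimulated replicate 1 (0.0633) or 2 (0.252). The restimulated difference was -0.99 (adjusted p = 0.0223) without Th1 restimulated replicate 1.

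Lag3 had 8.47, 8.06, 8.49 and 8.56 in unstimulated Th17 cells, against 9.22 and 9.43 in unstimulated Th1 cells (difference -0.93, SE 0.19, adjusted p = 0.00328). With restimulation it had 8.69, 8.38, 8.69 and 8.69 in Th17 cells, against 9.41 and 9.25 in Th1 cells (difference -0.71, SE 0.19, adjusted p = 0.0193). Here too the groups stood apart in both conditions. The unstimulated call was lost without Th1 unstimulated replicate 2 (0.122), and the restimulated call without Th1 replicate 1 (0.186) or Th17 replicate 2 (0.0640).

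Ctla4 was lower in unstimulated Th17 cells, with 9.59, 9.28, 9.62 and 9.51, against 10.50 and 10.38 in unstimulated Th1 cells (difference -0.94, SE 0.16, adjusted p = 0.000436), and this call held when any array was left out. After restimulation it averaged 10.70 ± 0.30 in Th17 cells (SD, n = 4) and 11.14 ± 0.10 in Th1 cells (SD, n = 2), and the difference of -0.44 was not called (adjusted p = 0.107). Without Th17 restimulated replicate 1 it was (-0.55, adjusted p = 0.0218). Btla averaged 9.75 ± 0.16 in unstimulated Th17 cells (SD, n = 4) and 9.21 ± 0.07 in unstimulated Th1 cells (SD, n = 2), a difference of 0.54 (adjusted p = 0.0849), or 0.0446 in a model of the compared groups alone. Restimulated, it differed by 0.43 (adjusted p = 0.169), with overlapping groups, and by 0.77 (adjusted p = 0.0288) without Th1 restimulated replicate 1 but by 0.095 (adjusted p = 0.876) without replicate 2.

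Without Th1 unstimulated replicate 2 the unstimulated calls numbered 2, Ctla4 and Tigit. Unstimulated groups did not overlap for 7 of 7 receptors, as for 23.7% of genes, and restimulated groups for 6 of 7, as for 17.6% of genes. Being called lower in both conditions applied to 5 of 7 receptors and to 1.16% of genes. The median difference of the 7 receptors was -0.94 unstimulated and -1.02 restimulated, beside 0.02 and -0.03 for all genes.

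Markers of other cells also differed between these groups. Of 7 NK cell markers, 4 were called lower in unstimulated Th17 cells of day 15 and 1 in restimulated ones. Their mean lay between 6.07 and 6.18 on unstimulated Th17 arrays, against 6.64 to 7.02 on unstimulated Th1 arrays. On restimulated arrays it ran from 5.82 to 5.99 in Th17 cells, against 6.25 to 6.61 in Th1 cells. The NK receptor gene Ncr1 was among those called lower. Of 8 regulatory T cell markers, 1 was called lower and 1 higher in unstimulated Th17 cells, and 5 lower in restimulated ones. Their mean ranged from 9.24 to 9.28 in unstimulated Th17 cells, against 9.20 to 9.74 in unstimulated Th1 cells, and from 9.28 to 9.53 in restimulated Th17 cells, against 10.05 to 10.07 in restimulated Th1 cells. Foxp3, the defining factor of regulatory T cells, averaged 9.53 ± 0.19 in restimulated Th17 cells (SD, n = 4) and 10.48 ± 0.60 in restimulated Th1 cells (SD, n = 2). Myeloid markers ran the other way, at 7.07 to 7.77 in unstimulated Th17 cells, against 6.63 on both unstimulated Th1 arrays, and at 6.94 to 7.54 in restimulated Th17 cells, against 6.54 to 6.82 in restimulated Th1 cells. Erythroid markers were called lower in Th17 cells for 3 of 3 restimulated and 1 of 3 unstimulated. Dendritic cell and MHC class II markers were called lower in Th17 cells for 3 of 9 restimulated and 1 of 9 unstimulated. Their mean ran from 6.85 to 7.25 in restimulated Th17 cells, against 7.44 to 7.48 in restimulated Th1 cells, and from 7.08 to 7.15 in unstimulated Th17 cells, against 7.41 to 7.52 in unstimulated Th1 cells. NK cells and regulatory T cells can express several of these receptors, and the part of such cells in the differences was not tested.

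**Figure D3:**
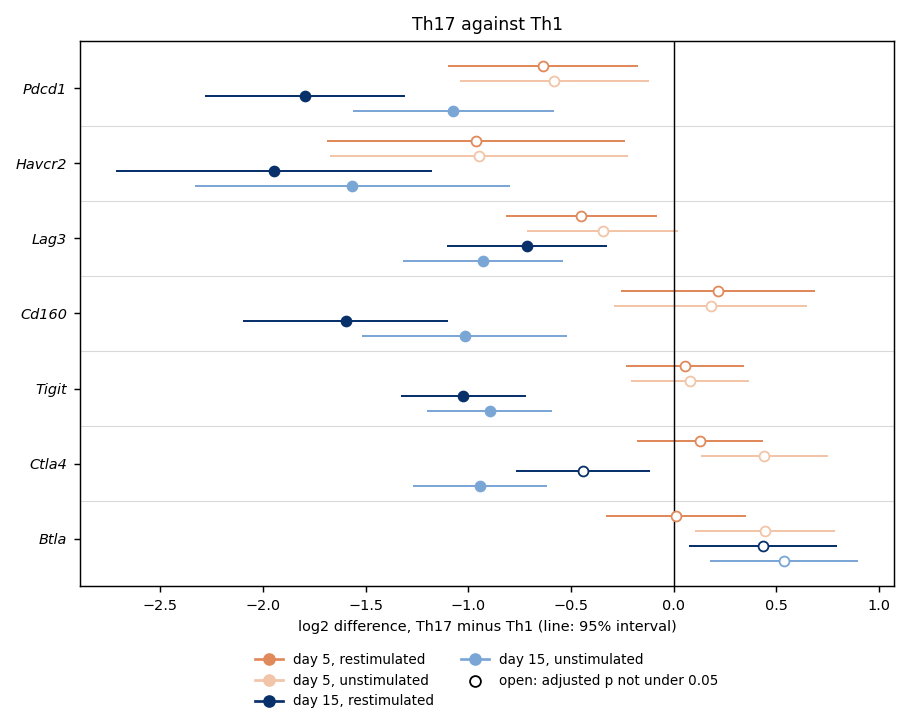
Log2 difference of each receptor gene, Th17 minus Th1, on day 5 and day 15 with and without restimulation; points are estimates, lines 95% intervals, and filled points are called. No day 5 point is filled, and on day 15 all filled points lie below 0.

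**Figure D4:**
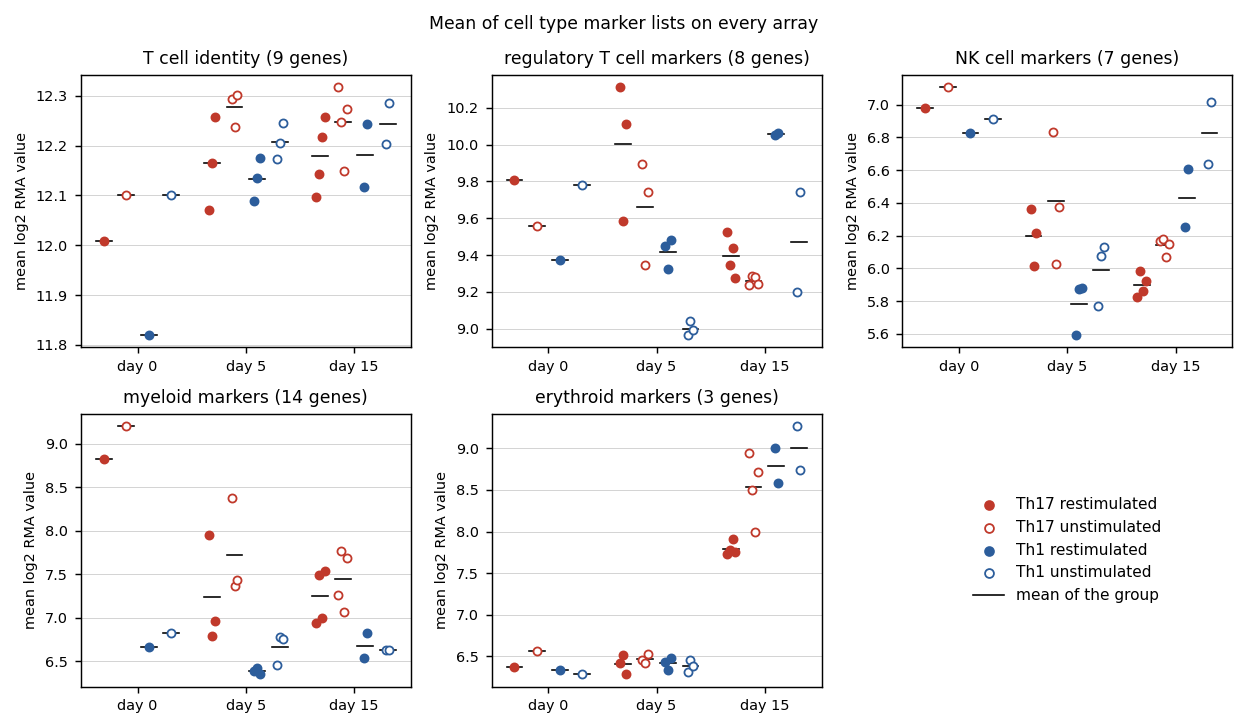
Mean log2 RMA value of marker lists on every array, by day, with Th17 (red) left of Th1 (blue) and restimulated arrays (filled) left of unstimulated ones (open); lines are group means. T cell identity genes stay between 11.82 and 12.32, NK cell markers are higher in Th1 than in Th17 cells on day 15, and erythroid markers are above 7.7 on all day 15 arrays and below 6.6 on all earlier ones.

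Between day 5 and day 15, Th17 cells lost transcript of most receptors, whereas fewer were called in Th1 cells. In Th17 cells 6 of 7 receptors were called lower on day 15 in each condition: all but Pdcd1 without restimulation and all but Btla with it. In Th1 cells 3 were called lower without restimulation (Tigit, Lag3 and Btla) and 1 with it (Btla). The share of genes called lower was 8.42% in restimulated and 5.28% in unstimulated Th17 cells, and 8.64% in restimulated and 8.72% in unstimulated Th1 cells. In either direction it was 13.5% and 9.64% in Th17 cells, and 15.7% and 16.1% in Th1 cells, in the same order. Called lower in both conditions were 5 receptors in Th17 cells, as were 2.60% of genes, and 1 in Th1 cells, as were 6.02%.

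The falls in Th17 cells were between 1.42- and 2.95-fold without restimulation and between 1.76- and 3.50-fold with it, over the called receptors. Tigit averaged 10.61 ± 0.25 on day 15 (SD, n = 4) and 12.17 ± 0.06 on day 5 (SD, n = 3) in unstimulated Th17 cells, a difference of -1.56 (SE 0.13, adjusted p = 7.99e-09). Restimulated, Tigit differed by -1.43 (SE 0.13, adjusted p = 1.51e-07). Day 15 arrays lay below all day 5 arrays in both conditions. Ctla4 averaged 9.50 ± 0.15 on day 15 and 11.06 ± 0.15 on day 5 without restimulation (difference -1.56, SE 0.14, adjusted p = 2.81e-08), and differed by -0.89 (SE 0.14, adjusted p = 0.000153) with it. Cd160 fell by 1.33 (SE 0.21, adjusted p = 0.000193) on the log2 scale unstimulated and by 1.81 (SE 0.21, adjusted p = 5.47e-06) restimulated, to values around that of the median gene (7.18). Lag3 fell by 1.24 (SE 0.16, adjusted p = 1.65e-05) and by 0.82 (SE 0.16, adjusted p = 0.00169), and Havcr2 by 1.54 (SE 0.33, adjusted p = 0.00342) and by 1.51 (SE 0.33, adjusted p = 0.00315), in the same order. The day 15 and day 5 groups of these 5 genes did not overlap.

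Pdcd1 fell by 1.01 (SE 0.21, adjusted p = 0.00206) in restimulated Th17 cells, where the groups overlapped because day 15 replicate 1 had 10.90. Unstimulated, its difference of -0.64 came with an adjusted p of 0.0515 and groups that did not overlap. It was called in 4 alternatives: a model of the compared groups alone (0.00361), genes above the median (0.0415), arrays centred on their medians (0.0362), and without day 15 replicate 4 (0.0476). Btla fell by 0.51 (SE 0.15, adjusted p = 0.0351) in unstimulated Th17 cells, a call lost without any 1 of 4 arrays (day 5 replicates 1 and 3, day 15 replicates 2 and 3), under cyclic loess, and without both parts of sample 1, with adjusted p from 0.0601 to 0.201. The other calls of the Th17 comparisons held in every alternative, including without sample 1. Groups did not overlap for 7 of 7 receptors unstimulated, as for 23.2% of genes, and for 6 of 7 restimulated, as for 19.5% of genes.

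In Th1 cells Tigit had 11.37 and 11.63 on unstimulated day 15 arrays, against 12.23, 12.05 and 11.99 on day 5 (difference -0.59, SE 0.15, adjusted p = 0.00830). Lag3 had 9.22 and 9.43 on day 15, against 9.98, 9.97 and 10.01 on day 5 (difference -0.66, SE 0.20, adjusted p = 0.0206). Btla had 9.26 and 9.16 on day 15, against 9.77, 9.79 and 9.88 on day 5 (difference -0.60, SE 0.18, adjusted p = 0.0232). All 3 groups of day 15 values lay below the day 5 values. Groups did not overlap for 5 of 7 receptors unstimulated, as for 49.9% of genes, and for 3 of 7 restimulated, as for 36.2%. Btla fell in restimulated Th1 cells as well, by 0.81 (SE 0.18, adjusted p = 0.00261). Pdcd1 differed by -0.15 unstimulated and 0.15 restimulated, with 95% intervals of -0.66 to 0.36 and -0.36 to 0.66, and Cd160 by -0.13 and 0.01. Havcr2 had the largest unstimulated difference of the 7 in Th1 cells, -0.92 (95% interval -1.72 to -0.11, adjusted p = 0.123), with groups that did not overlap, and a model of the compared groups alone called it (adjusted p = 2.95e-05). Its restimulated difference was -0.52 (adjusted p = 0.472), or -1.05 without day 15 replicate 1 and 0.0007 without replicate 2. Without day 15 unstimulated replicate 1 none of the 3 unstimulated calls held (adjusted p 0.0815 to 0.185), without day 15 replicate 2 or day 5 replicate 3 Tigit alone was called, and Lag3 was also lost without day 5 replicate 1 (0.0513). Without day 15 restimulated replicate 2 the restimulated Btla call was lost (-0.48, adjusted p = 0.151), as in a model of the compared groups alone (0.119).

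Whether the types changed differently over time was tested as an interaction, the Th17 minus Th1 difference on day 15 less that on day 5. Ctla4 (-1.39, SE 0.21, adjusted p = 0.00138) and Tigit (-0.97, SE 0.20, adjusted p = 0.0138) passed among unstimulated arrays, where 0.562% of genes were called with this sign. Tigit (-1.08, SE 0.20, adjusted p = 0.00801) and Cd160 (-1.81, SE 0.33, adjusted p = 0.00692) passed among restimulated arrays, where 0.512% were. The day difference of Tigit was thus more negative in Th17 than in Th1 cells in both conditions, and those of Ctla4 and Cd160 in 1 condition each. Lag3, Havcr2 and Btla were called in neither, although Lag3 passed among unstimulated arrays without both parts of day 5 Th17 sample 1 (-0.76, adjusted p = 0.0439), and for Pdcd1 the restimulated value was -1.16 with an adjusted p of 0.0853. The unstimulated Tigit call was lost without Th1 day 15 replicate 2 (0.170), and the Cd160 call without Th1 day 15 restimulated replicate 1 (0.0513) and in a model of the compared groups (0.0709), which called Cd160 among unstimulated arrays (0.00513). Pdcd1 passed without Th17 day 5 replicate 2 (0.0449), Th1 day 15 replicate 2 (0.0188) or Th17 day 15 replicate 1 (0.00420), and was -0.76 (0.354) without Th1 day 15 replicate 1. The Cd160 value without that array was -1.20.

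Tigit, Lag3, Havcr2 and Cd160 were lower in Th17 cells of day 15 both against Th1 cells of day 15 and against Th17 cells of day 5, with and without restimulation, as were 0.145% of genes. These 4 comparisons share the day 15 Th17 arrays and were not counted as independent. Erythroid markers, of which 3 of 9 were measured, were called higher on day 15, 3 of 3 in all 4 comparisons: their mean reached 8.95 on unstimulated Th17 arrays of day 15, with a group mean of 8.54, against 6.41 to 6.53 on day 5. In unstimulated Th1 cells it ran from 8.74 to 9.27 on day 15, against 6.31 to 6.45 on day 5. Regulatory T cell markers were called lower on day 15 in Th17 cells for 4 of 8 restimulated and 2 of 8 unstimulated, and higher in Th1 cells for 4 of 8 and 3 of 8. Foxp3 averaged 9.67 ± 0.11 on day 15 (SD, n = 4) and 10.60 ± 0.50 on day 5 (SD, n = 3) in unstimulated Th17 cells, and 10.55 ± 0.88 on day 15 (SD, n = 2) and 9.66 ± 0.10 on day 5 (SD, n = 3) in unstimulated Th1 cells. NK cell markers were called higher on day 15 in Th1 cells for 2 of 7 restimulated and 3 of 7 unstimulated, with group means of 6.83 on day 15 and 5.99 on day 5 unstimulated, and for 0 of 7 in Th17 cells. In the interaction of type and day 2 of 7 NK cell markers were called with a negative sign in each condition (list medians -0.93 restimulated and -1.02 unstimulated), the sign of Ctla4, Tigit and Cd160. With that sign 5 of 8 regulatory T cell markers were called restimulated and 1 of 8 unstimulated. Of 14 myeloid markers, 2 were called higher and 0 lower on day 15 in restimulated Th17 cells, and 2 higher and 4 lower in unstimulated ones. The part of such cells and of red cell RNA in the day differences was not tested.

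**Figure D5:**
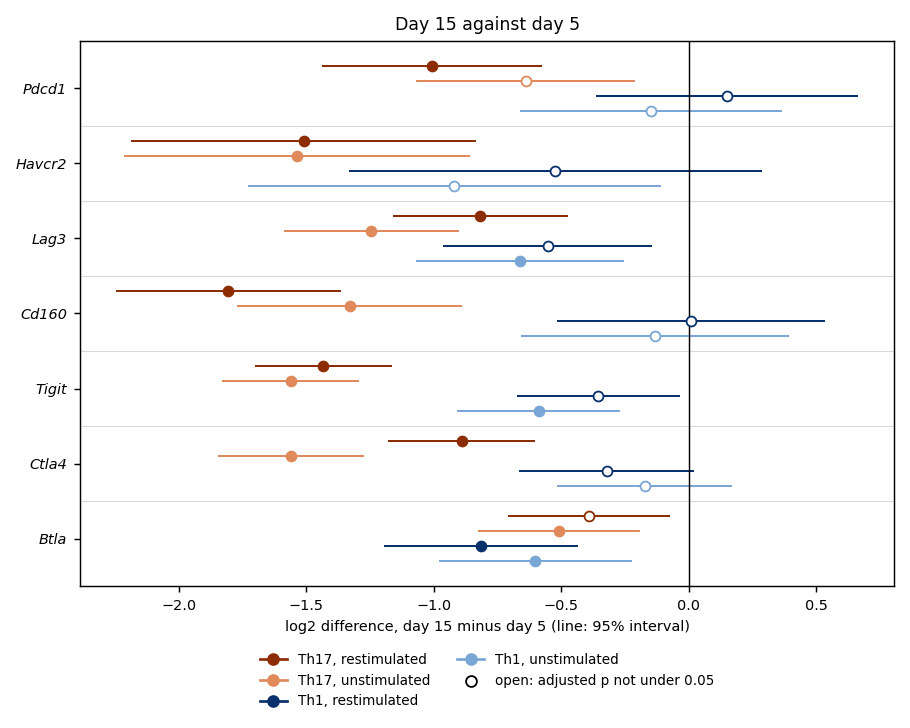
Log2 difference of each receptor gene, day 15 minus day 5, in Th17 and Th1 cells with and without restimulation; points are estimates, lines 95% intervals, and filled points are called. All filled points lie below 0, and for every receptor but Btla the Th17 points lie below the Th1 points. The interaction of type and day was called for Tigit, Ctla4 and Cd160 only.

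Before transfer several receptors had lower values in the Th17 than in the Th1 culture, although 1 array per group gives no spread and no test. On unstimulated day 0 arrays, 5 receptors were at least 2-fold lower in Th17 than in Th1 cells, as were 1.81% of genes. Lag3 had 8.06 in Th17 cells and 9.72 in Th1 cells, and Pdcd1 had 8.77 and 10.10 in the same order. Tigit had 8.93 in Th17 cells and 10.22 in Th1 cells, Havcr2 had 8.73 and 9.98, and Cd160 had 7.37 and 8.51. Ctla4, at 11.12 in Th17 cells and 10.94 in Th1 cells, and Btla, at 9.01 and 8.55, were not lower. On restimulated arrays 4 were at least 2-fold lower in Th17 cells (Tigit, Lag3, Havcr2 and Cd160), as were 1.13% of genes. Havcr2 showed the widest gap of the 7, at 10.00 in Th17 cells and 12.13 in Th1 cells. Beside these values, the mean of 2 CD8 T cell markers was 7.25 in restimulated Th17 and 8.08 in restimulated Th1 cultures, and 7.35 and 8.22 unstimulated. Dendritic cell and MHC class II markers averaged 8.46 in restimulated Th17 and 8.11 in restimulated Th1 cultures, and 8.58 and 8.13 unstimulated, and myeloid markers were higher in Th17 cultures, as given above. The part of these cells in the day 0 differences was not tested.

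Restimulated cultures of Th17 cells held at least 2-fold more of 3 receptors than unstimulated ones, as for 1.80% of genes. Pdcd1 was higher by 2.00 log2 units, Cd160 by 1.36 and Havcr2 by 1.27. In Th1 cultures 4 receptors were at least 2-fold higher, as were 3.69% of genes, namely Havcr2 by 2.15, Cd160 by 1.82, Pdcd1 by 1.30 and Tigit by 1.17. Cd160, which was not called with restimulation after transfer, thus had 8.73 restimulated and 7.37 unstimulated in Th17 cultures, and 10.33 restimulated and 8.51 unstimulated in Th1 cultures. Ctla4 was higher by 0.68 in Th17 and by 0.18 in Th1 cultures.

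Over the 3 days the receptors took different courses. Unstimulated Tigit in Th17 cells was 8.93 on day 0, averaged 12.17 ± 0.06 on day 5 (SD, n = 3) and 10.61 ± 0.25 on day 15 (SD, n = 4). In unstimulated Th1 cells it was 10.22 on day 0, averaged 12.09 ± 0.13 on day 5 (SD, n = 3) and 11.50 ± 0.18 on day 15 (SD, n = 2). In both types Tigit was thus highest on day 5. Unstimulated Ctla4 in Th17 cells was 11.12 on day 0 and averaged 11.06 ± 0.15 on day 5 and 9.50 ± 0.15 on day 15. Day 0 arrays were cultured cells and the later ones were sorted from mice, so day and handling cannot be told apart there.

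Ranked by group mean over the 8 groups after transfer, the receptors followed different orders. Unstimulated Th17 cells of day 15 were lowest for Pdcd1, Ctla4, Tigit, Lag3 and Havcr2, and restimulated Th17 cells of day 15 were lowest for Cd160. For Btla, unstimulated Th1 cells of day 15 were lowest. Restimulated Th1 cells of day 15 headed the order of Pdcd1 and restimulated Th1 cells of day 5 that of Havcr2. Of the 7 neighbouring pairs in each order, the arrays did not overlap in 3 for Pdcd1, in 2 for Ctla4 and Tigit, in 1 for Lag3, Havcr2 and Cd160, and in 0 for Btla. Such pairs were not counted for other genes, so these counts do not tell whether the receptors are unusual.

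Likeness of pattern was described by Pearson's r over the 12 group means, which share arrays and processing, so no p is given. Among the receptors, Pdcd1 and Havcr2 were most alike (r = 0.918), followed by Lag3 and Havcr2 (0.853), and Ctla4 and Tigit least (0.0217). Over 9645 other genes with a mean above the median gene, the closest to Pdcd1 were Fhl2 (0.955), Zbtb41 (0.949) and Rab8b (0.935). Closest to Ctla4 were Zfp410 (0.908), Zfand5 (0.902) and Hif1a (0.898), and to Tigit Farp1 (0.958), Tnpo1 (0.924) and Dmrt3 (0.922). Lag3 was nearest to Prdm1 (0.961), the gene of the repressor Blimp-1, ahead of Arf6 (0.901) and Chst2 (0.898). Havcr2 was nearest to Gosr2 (0.968), Fhl2 (0.936) and Serpinb9 (0.933), Cd160 to Wsb2 (0.936), Aggf1 (0.923) and Sytl3 (0.913), and Btla to Zfat (0.866), BC085271 (0.865) and Tial1 (0.840). Btla had the weakest best match of the 7. Pearson's r ignores the size of a change, and some of these matches varied little. Group means ran from 10.50 to 10.77 for Tnpo1, from 7.33 to 7.91 for Dmrt3 and from 7.38 to 7.70 for Zfat. Others varied more, such as Fhl2, from 7.40 to 10.20.

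The ligands of these receptors, 13 genes, were measured in the T cells themselves. With restimulation, 2 of 13 were called higher in each of the 4 comparisons, and these were the genes of the ligands of PD-1, Cd274 (PD-L1) and Pdcd1lg2 (PD-L2). Called lower were Tnfrsf14, which encodes HVEM, in Th1 cells on day 5 (-0.35) and Th17 cells on day 15 (-0.28), and Lgals9, which encodes galectin-9, in Th17 cells on day 5 (-0.40) and day 15 (-0.33). Cd274 averaged 11.80 ± 0.20 on restimulated and 9.97 ± 0.15 on unstimulated Th17 arrays of day 5 (SD, n = 3 each), a difference of 1.83 (adjusted p = 4.47e-08). In Th1 cells of day 5 it averaged 11.45 ± 0.12 restimulated and 9.99 ± 0.09 unstimulated (SD, n = 3 each), a difference of 1.46 (adjusted p = 1.35e-06). On day 15 the Cd274 difference was 1.44 in Th17 cells (adjusted p = 6.51e-08) and 0.88 in Th1 cells (adjusted p = 0.00604). Pdcd1lg2 differed by 1.11 in Th17 and 1.49 in Th1 cells on day 5, and by 0.74 and 0.81 on day 15. Between the types on day 15, 3 ligand genes were called lower in unstimulated Th17 cells (Pdcd1lg2, Cd86 and Pvr) and 2 in restimulated ones (Pdcd1lg2 and Pvr). Pvr, the ligand of TIGIT and CD226, averaged 9.39 ± 0.16 in unstimulated Th17 cells (SD, n = 4) and 9.89 ± 0.02 in unstimulated Th1 cells (SD, n = 2).

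Of 8 activating counterparts, 1 was called higher and 1 lower in Th17 than in Th1 cells in each condition on day 5: Cd96 higher and Cd226 lower. Cd226 encodes the activating receptor that shares its ligand with TIGIT. It averaged 10.40 ± 0.22 on day 15 (SD, n = 4) and 9.18 ± 0.25 on day 5 (SD, n = 3) in restimulated Th17 cells, higher on day 15 by 1.22 (adjusted p = 5.76e-06), and was higher by 0.64 (adjusted p = 0.00561) in unstimulated ones. Tigit had fallen in the same comparisons. Icos, a costimulatory receptor, was lower on day 15 in Th17 cells by 0.70 restimulated and 0.56 unstimulated. No activating counterpart was called between unstimulated types on day 15, and 2 of 8 were called higher in restimulated Th17 cells, Slamf6 and Cd96.

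Among 15 signalling partners, Trat1, a transmembrane adaptor that binds CTLA-4, was called higher in Th17 than in Th1 cells in all 4 comparisons, by 1.18 to 1.95. It averaged 8.79 ± 0.13 in Th17 cells and 6.84 ± 0.07 in Th1 cells on restimulated day 5 arrays (SD, n = 3 each). Ptpn11, the phosphatase SHP-2 recruited by PD-1, was called lower in Th17 cells in the same 4, with differences of -0.48 to -0.89.

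Of 16 other genes linked to T cell inhibition, which include ligands (Cd200, Cd276, Vtcn1), an enzyme (Entpd1) and the costimulatory Tnfrsf9 beside receptors, Klrg1 and Entpd1 were called lower in Th17 than in Th1 cells in all 4 comparisons. Klrg1, a lectin-like receptor of late effector cells, averaged 9.29 ± 0.18 in Th17 cells (SD, n = 4) and 11.84 ± 0.04 in Th1 cells (SD, n = 2) on unstimulated day 15 arrays, a difference of -2.55 (adjusted p = 3.09e-09). On day 5 the unstimulated difference was -3.21 (adjusted p = 7.29e-12). Unlike the receptors above, Klrg1 was higher on day 15 than on day 5 in Th17 cells, by 1.49 restimulated (adjusted p = 1.19e-06), and likewise unstimulated (adjusted p = 3.66e-07). Entpd1 (CD39), an enzyme that degrades extracellular ATP, averaged 9.87 ± 0.18 in Th17 cells (SD, n = 4) and 11.25 ± 0.08 in Th1 cells (SD, n = 2) on unstimulated day 15 arrays.

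The 26 measured factors linked to checkpoint genes included several genes that rose more than 4-fold with restimulation. Between 8 and 11 of the 26 were called higher in each of the 4 restimulation comparisons, and 0 or 1 lower. Nr4a1, an early gene of antigen receptor signalling, averaged 12.94 ± 0.27 on restimulated and 10.01 ± 0.09 on unstimulated Th17 arrays of day 15 (SD, n = 4 each), a difference of 2.93 (adjusted p = 1.31e-12). Nr4a2 and Nr4a3 were called higher in all 4, by 3.29 to 4.34 and by 3.27 to 3.86. On day 15 unstimulated Th17 cells had less Prdm1 than Th1 cells, 8.90 ± 0.25 (SD, n = 4) and 9.92 ± 0.25 (SD, n = 2), a difference of -1.02 (adjusted p = 0.000123). Prdm1 was also lower in unstimulated Th17 cells of day 15 than of day 5, with a difference of -0.97 (adjusted p = 3.09e-05). In all, 5 of the 26 were called lower in unstimulated and 7 in restimulated Th17 cells of day 15 against Th1 cells, with 0 and 1 higher.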

How the data were processed

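RNA of 28 samples was hybridised to Affymetrix mouse arrays. The authors deposited log2 values made with Affymetrix Expression Console and RMA, per the submitters' processing notes. Tool versions and the genome build were not given in the sources used here. Of 35556 probe sets, 21789 had 1 gene symbol, 1621 several and 12146 none. The probe set with the highest mean stood for each of the 999 genes with several. Groups came from the labels. limma 3.58.1 in R 4.3.3 fitted 8 groups over 24 arrays, with Benjamini-Hochberg adjustment over 19938 genes, and was tested on simulated data. The members and lists were chosen with earlier results of these data known. Of 154 list entries 143 were measured. Named list genes are the called ones with the largest differences per list and comparison. Foxp3 and Ikzf2 stand in both the regulatory T cell and the factor list. Cd5 stands among the T cell identity genes and the other genes linked to inhibition, and Siglech among the latter and the dendritic cell markers. Replicate numbers were taken to pair the restimulated and unstimulated arrays, since per the labels each sample was split and the titles repeat the number. Deviations of these pairs from group means correlated at 0.39 to 0.48 in Th17 and 0.16 to 0.21 in Th1 cells on day 5, and at -0.16 to 0.21 and 0.12 on day 15. In Th17 cells on day 15, replicates 1, 3 and 4 correlated at -0.003, -0.13 and -0.16 by number, but at up to 0.08, 0.19 and 0.22 with another number. The pairing in that comparison is therefore uncertain. Of the other comparisons with 3 pairs, every pair exceeded 0.1 in restimulated Th17 against Th1 on day 5 (0.21 to 0.48). Between days in Th1 cells both of the 2 pairs did (0.21 to 0.65), too few to count as pairing. In restimulated Th17 against Th1 cells on day 15 the correlation was 0.65 for replicate 1 and 0.07 for replicate 2. Replicate 1 held the highest Pdcd1 and Havcr2 values of both groups, which have 4 Th17 and 2 Th1 arrays. The part of this in the day 15 differences was not tested. Alternatives changed the model, filter, scaling, probe set rule, prior, block or arrays. Leaving out day 5 Th17 sample 1 was chosen after seeing the data.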

Additional observations from a re-analysis of the deposited data

Results flagged for a closer look

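Lag3 on restimulated Th17 replicate 2 of day 15 was 8.38, far below the other 3 arrays of its group, which lay at 8.69. It was the 1 value past Dixon's limit among 14 tests, 7 genes in each of the 2 groups of 4 arrays, where chance marks about 1 in 20.

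The change from day 5 to day 15 differed between Th17 and Th1 cells by an interaction test for 3 receptors. The interaction was -1.39 for Ctla4 and -0.97 for Tigit among unstimulated arrays, and -1.08 for Tigit and -1.81 for Cd160 among restimulated arrays. Among the listed genes, Klrc1, an inhibitory lectin-like receptor, had -1.67 unstimulated (adjusted p = 0.0104) and -1.43 restimulated (adjusted p = 0.0309). Foxp3 had -1.82 unstimulated (adjusted p = 0.0211) and -1.87 restimulated (adjusted p = 0.0231). Tnfrsf9 (4-1BB), a costimulatory receptor, had -1.89 restimulated (adjusted p = 0.0434). The response to restimulation differed between day 15 and day 5 in Th17 cells for Fos, a subunit of AP-1, by 2.37 (adjusted p = 0.0438).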

How the results depend on the processing

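Of 39 receptor calls, 21 held under every alternative, 18 were lost under at least 1 (7 of these only when an array was left out) and 0 changed sign. Of 87 receptor values not called, 19 were called under at least 1. With the compared groups alone, the calls numbered 3 on day 5 unstimulated and 1 restimulated between types, against 0 each, 0 for restimulation in Th1 cells on day 15, against 2, and 1 for the restimulated interaction of type and day, against 2. Median centring gave 1 for restimulation in Th17 cells on day 5, against 2, and 0 without both parts of sample 1. In restimulated Th1 cells between days, centring and the filter on dim genes each gave 2, against 1. The replicate block gave 1 in unstimulated Th1 cells between days, against 3, and it lost Cd160 between unstimulated types on day 15 (0.0908) and added Pdcd1 in the restimulated interaction of type and day (0.00701); in these the samples share only a number. Where the numbers were taken to pair the parts of split samples, the block added Havcr2 for restimulation in Th17 cells on day 15 (0.0449) and changed no other receptor call. These counts, and those for left-out arrays below, are of receptors only, without the share of all genes called in each setting. They do not tell whether receptor calls changed more than those of other genes. The cause of these changes was not tested.

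Leaving out 1 array at a time gave 2 to 6 calls between types on day 15 unstimulated, 4 to 6 restimulated, and 0 on day 5 in both conditions. Restimulation gave 1 to 2 calls in Th17 cells on day 5, 1 to 3 on day 15, 2 in Th1 cells on day 5 and 0 to 4 on day 15. Between days the counts were 5 to 7 in unstimulated and 6 in restimulated Th17 cells, and 0 to 3 and 0 to 1 in Th1 cells. The interaction of type and day gave 1 to 2 unstimulated and 1 to 3 restimulated, and that of type and restimulation 0 on day 5 and 0 to 1 on day 15 (Cd160, 0.0493, without Th1 restimulated replicate 2).

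Over all genes, scaling moved the split of higher and lower calls. For restimulation, loess gave 1192 higher and 1318 lower in Th1 cells on day 5, against 811 and 1786, 798 and 800 on day 15, against 529 and 924, and 2111 and 1669 in Th17 cells on day 15, against 1293 and 2206. Centring gave 656 and 1072 in Th17 cells on day 5, against 795 and 814, and 1527 and 1594 on day 15. Between days, centring gave 1132 and 2184 in restimulated Th1 cells, against 1410 and 1722, and 611 and 1839 in unstimulated Th17 cells, against 871 and 1052. Loess gave 1848 and 1187 in restimulated Th17 cells, against 1006 and 1679. For the restimulated interaction of type and day, loess gave 218 and 125 and centring 86 and 61, against 86 and 102. For restimulation by day in Th17 cells they gave 179 and 120, and 116 and 100, against 88 and 146. No receptor difference called changed sign under them.

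Groups of 2 Th1 arrays on day 15 and 1 array per group on day 0 limit these comparisons.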
